A study of Rattus norvegicus with 15 samples.

Results

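The 6 genes described here encode enzymes that make glucose and that build or break down glycogen in liver: Pc, Pck1, Fbp1, G6pc, Gys2 and Pygl. They were taken from the 32623 genes of the counts table by their symbols, and all 6 were among the 14417 genes with enough reads to be tested. RNA was sequenced from whole liver of male Wistar rats that weighed 75 to 100 g at the start. Control rats (n = 4 with counts) received no treatment. The authors sequenced 5 controls and left out 1 that a principal component analysis set apart, so the spread among the 4 kept may be too small. Rats with cirrhosis (n = 5) inhaled CCl4, a liver toxin, and drank phenobarbital at 0.35 g/L, over 12 weeks. Rats of the cirrhosis & eplerenone group (n = 5) received the same and, after 8 weeks and up to week 12, eplerenone at 100 mg/kg by mouth in 5 g of hazelnut spread a day. Eplerenone inhibits the mineralocorticoid receptor (MR). Livers were taken 7 to 10 days after the last CCl4 in both treated groups. The rats were chosen for sequencing by how well cirrhosis or the treatment had succeeded, and the labels describe no spread for the rats without eplerenone, so spread and eplerenone cannot be told apart. Standard food was freely available, and a fast before sampling is not mentioned.

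Gluconeogenesis runs from lactate, amino acids and glycerol back to glucose, and the liver uses it to feed the blood between meals. Pyruvate carboxylase (Pc) forms oxaloacetate in mitochondria, phosphoenolpyruvate carboxykinase (Pck1) turns it into phosphoenolpyruvate, fructose-1,6-bisphosphatase (Fbp1) removes a phosphate further up the route, and glucose-6-phosphatase (G6pc) releases free glucose. Liver glycogen synthase (Gys2) lengthens glycogen chains, and liver glycogen phosphorylase (Pygl) shortens them. Pck1 and G6pc are textbook targets of glucagon, through cAMP, and of insulin, and hence follow feeding.

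The stretches of 250 bases before the start sites of 4 of the genes are shown because they carry, or lack, short motifs linked to hormone control. They come from the RefSeq promoter table for build GRCr8, not from rn6, the build of the counts, and 5 of the 6 genes had an entry, Pc being the exception. G6pc is listed there as G6pc1. Each line reads 5′ to 3′ on the strand of the gene, and capitals mark matches on either strand to ACGTCA (the core of a cAMP response element), AGGTCA (a nuclear receptor binding motif) or TGTTTTTG (the core of an insulin response element). The Pck1 stretch is chr3:182348322-182348571 on the plus strand, that of G6pc chr10:86807409-86807658 on the plus strand, that of Gys2 chr4:177137237-177137486 on the minus strand and that of Pygl chr6:94476220-94476469 on the minus strand.
Pck1: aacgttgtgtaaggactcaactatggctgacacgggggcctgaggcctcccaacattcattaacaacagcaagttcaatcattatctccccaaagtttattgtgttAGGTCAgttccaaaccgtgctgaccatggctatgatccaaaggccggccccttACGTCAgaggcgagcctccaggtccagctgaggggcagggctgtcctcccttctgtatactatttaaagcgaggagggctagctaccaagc
G6pc: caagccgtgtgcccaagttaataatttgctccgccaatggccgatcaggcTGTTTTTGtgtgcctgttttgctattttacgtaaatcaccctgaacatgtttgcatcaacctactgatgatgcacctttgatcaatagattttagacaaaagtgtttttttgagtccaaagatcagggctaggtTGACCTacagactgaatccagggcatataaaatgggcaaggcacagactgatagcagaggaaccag
Gys2: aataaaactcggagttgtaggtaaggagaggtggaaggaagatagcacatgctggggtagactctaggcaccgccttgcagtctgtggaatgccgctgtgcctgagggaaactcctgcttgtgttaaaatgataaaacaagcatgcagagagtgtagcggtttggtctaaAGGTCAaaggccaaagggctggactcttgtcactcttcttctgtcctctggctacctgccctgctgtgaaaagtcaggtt
Pygl: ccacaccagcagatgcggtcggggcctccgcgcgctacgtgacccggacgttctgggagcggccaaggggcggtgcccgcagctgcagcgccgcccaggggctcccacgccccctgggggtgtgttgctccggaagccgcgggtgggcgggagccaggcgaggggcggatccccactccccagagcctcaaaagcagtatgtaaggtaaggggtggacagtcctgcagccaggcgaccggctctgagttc

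Pck1 held ACGTCA 91 to 86 bases before its start, letters found in 6.95% of 33469 RefSeq promoter stretches of the same length. AGGTCA, present in 14.1% of them, stood 144 to 139 bases before the start of Pck1, 80 to 75 before that of Gys2 and, as TGACCT on the opposite strand, 66 to 61 before that of G6pc. TGTTTTTG, present in 1.56%, stood 200 to 193 bases before the start of G6pc. No match overlapped another. The stretches of Pygl and Fbp1 held none of the 3 motifs. These are matches of letters and say nothing about binding.

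Each library held 16157491 to 21574767 counted reads, and the 6 genes had between 649 and 83289 reads in each rat. Levels are given as FPM, fragments per 1000000 of the TMM-scaled library, without a length correction, so levels are compared between rats and not between genes. On the first principal component, which held 66.6% of the variance of the 500 most variable genes, the controls lay at 44.3 to 50.6 and cirrhosis replicates 1 to 4 at -47.7 to -38. Cirrhosis replicate 5 lay apart from its group at 13, and the cirrhosis & eplerenone rats spread from -42.6 (replicate 3) to 26.8 (replicate 2). The tissue label held in every sample, since 9 hepatocyte markers together reached at least 116700 FPM. Their sums lay between 192900 and 220800 FPM in control rats, went down to 149300 with cirrhosis (highest 207000), and spanned 116700 to 212700 with added eplerenone. The labels also carry a number before the animal's number, without saying what it stands for. It splits each CCl4 group into rats with 15 and rats with 20, while controls carry 13 or 16. The number is thus confounded with CCl4 treatment in every comparison with control. Among the controls with counts, replicate 2 carries 13 and replicates 3 to 5 carry 16.

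In cirrhotic livers all 6 enzymes had lower mean levels than in control livers, and 2 of the 6 differed at an FDR under 0.05, Pc and Pygl. Of all genes tested, 6.71% were called lower and 13.4% higher in this comparison. The log2FC of the 6 genes ranged from -0.92 to -0.33 with a median of -0.75, against a median of -0.01 over all genes tested, and that of G6pc turned to 0.02 when libraries were scaled on hepatocyte markers. Neither call held under that scaling, with a log2FC of -0.55 (FDR = 0.0954) for Pc and of -0.46 (FDR = 0.155) for Pygl. DESeq2 called the same 2 of the 6, beside 9.93% of all genes called lower by that tool. For Fbp1, Gys2 and Pygl every cirrhotic rat lay below every control rat, which was so for 9.03% of all genes tested.

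**Figure D1:**
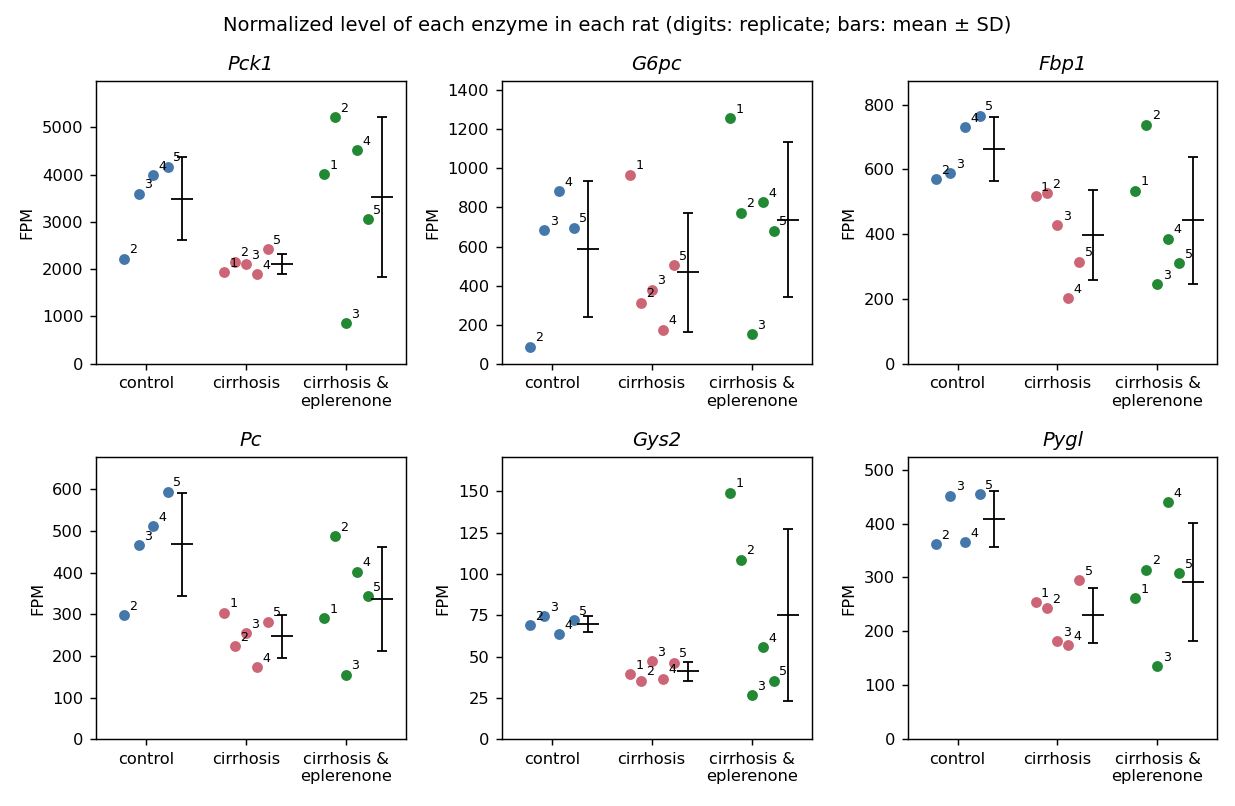
Level of each of the 6 enzymes in FPM (linear axis from 0) in each rat, by group, with digits for the replicate and bars for mean ± SD. For Fbp1, Gys2 and Pygl the 5 cirrhosis rats sit below the 4 controls, and cirrhosis & eplerenone replicate 3 is the lowest of its group in every panel.

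Pc, which starts gluconeogenesis from pyruvate, fell most in fold among the 6. Control rats had 298, 466, 511 and 594 FPM. Cirrhotic rats had 303, 223, 255, 173 and 282 FPM. The 2 groups overlapped through control replicate 2 alone, which had a level inside the cirrhotic range. Means were 467 ± 125 (SD, n = 4) in control and 247 ± 51.3 (SD, n = 5) in cirrhosis, a log2FC of -0.92 (SE 0.29, 95% interval -1.54 to -0.30, FDR = 0.0390, and 0.0142 by DESeq2). The call was lost when any of cirrhosis replicates 2, 3 and 4 or control replicates 3, 4 and 5 was left out, with the FDR reaching 0.119 without control replicate 5 (log2FC -0.79).

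Pck1, the enzyme most often taken as a readout of gluconeogenic gene control, had 2220, 3595, 3989 and 4167 FPM in control rats. It had 1932, 2163, 2109, 1889 and 2426 FPM in cirrhotic rats. The cirrhotic rats lay close together, with a coefficient of variation of 10.2% against 25.2% in control, and control replicate 2 again fell among them. Means of 3493 ± 882 (SD, n = 4) and 2104 ± 214 (SD, n = 5) gave a log2FC of -0.73 (SE 0.37, 95% interval -1.52 to 0.06, FDR = 0.165). This did not pass the threshold, but it did when cirrhosis & eplerenone replicate 3 was left out of the model (log2FC -0.71, FDR = 0.0322) and when only the 2 groups were fitted (log2FC -0.72, FDR = 0.0450).

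Fbp1, which acts between the triose phosphates and glucose-6-phosphate, had 570, 588, 729.9 and 765 FPM in control rats. In cirrhotic rats it had 518, 527, 428, 203 and 316 FPM. In FPM no cirrhotic rat reached the lowest control, although cirrhosis replicates 1 and 2 came near to it. The log2FC was -0.74 (SE 0.32, 95% interval -1.43 to -0.05, FDR = 0.112), so the difference missed the threshold. Relative to the hepatocyte markers of the same rat the groups overlapped, with 3 of the 5 cirrhotic rats below every control.

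G6pc, the last step to free glucose, had the highest coefficients of variation of the 6 enzymes in control and in cirrhosis. Its control levels were 86.0, 683, 883 and 697 FPM. Its levels in cirrhosis were 968, 312, 378, 173 and 504 FPM. Both groups held a rat far from the rest, control replicate 2 at the bottom and cirrhosis replicate 1 at the top, and the groups overlapped over nearly all of their range. The coefficients of variation were 59.0% and 65.2%, and the log2FC of -0.33 (SE 0.61, FDR = 0.71) had a 95% interval of -1.64 to 0.98, wide enough to hold a large change in either direction. It ranged from -0.76 without cirrhosis replicate 1 to -0.07 without control replicate 4.

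Gys2, the synthase of liver glycogen, was the steadiest of the 6 in control rats, at 69.1, 74.5, 63.6 and 72.1 FPM. Cirrhotic rats had 39.3, 35.6, 47.4, 36.7 and 46.4 FPM. The groups stood clearly apart, with coefficients of variation of 6.72% and 13.3%. The model over all 3 groups gave a log2FC of -0.77 (SE 0.38, FDR = 0.150), which did not pass. That model shares its estimate of the spread with the cirrhosis & eplerenone rats, whose coefficient of variation was 69.4%. Fitted on the control and cirrhosis rats alone, Gys2 had a log2FC of -0.75 at an FDR of 0.00540. In that fit 4 of the 6 enzymes were called lower (Pc, Pygl, Gys2 and Pck1), beside 7.48% of all genes tested in it.

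Pygl, the phosphorylase that frees glucose from liver glycogen, fell as well. Control rats had 361, 452, 366 and 454 FPM. Cirrhotic rats had 254, 243, 182, 175 and 295 FPM. The highest cirrhotic rat lay below the lowest control. Means were 408 ± 51.6 (SD, n = 4) and 229.7 ± 50.9 (SD, n = 5), a log2FC of -0.83 (SE 0.27, 95% interval -1.40 to -0.26, FDR = 0.0425, and 0.0168 by DESeq2). Leaving out any single rat of control or of cirrhosis other than cirrhosis replicate 5 ended the call, with an FDR of up to 0.108 (log2FC -0.78) without control replicate 5.

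**Figure D2:**
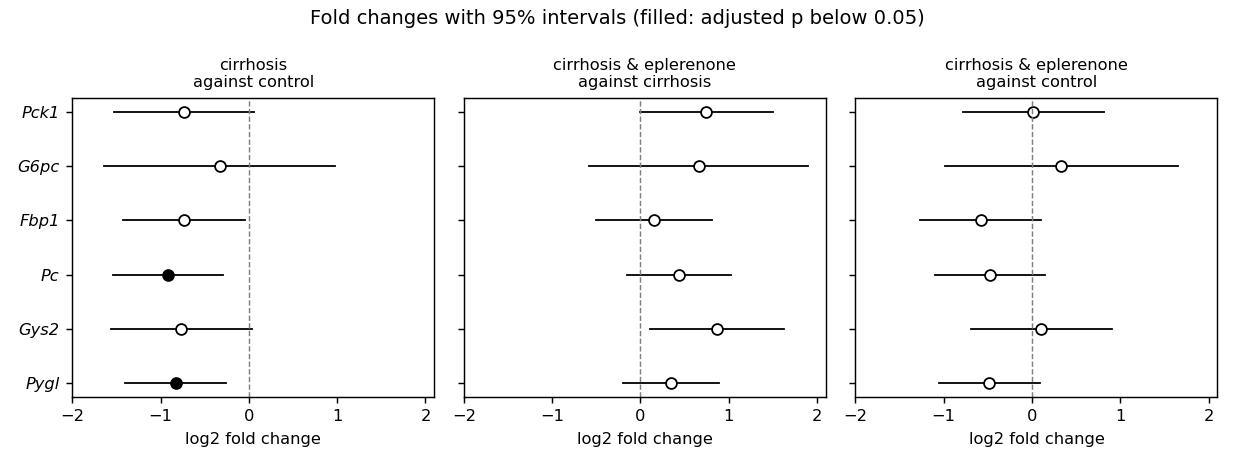
Log2 fold change of the 6 enzymes in the 3 comparisons, with 95% intervals as lines and filled circles for FDR below 0.05. Pc and Pygl are filled in cirrhosis against control (log2FC -0.92 and -0.83), where all 6 points lie below 0 (G6pc turned to 0.02 with scaling on hepatocyte markers), and no circle is filled in the comparisons with eplerenone.

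In livers of rats that received eplerenone the mean level of each of the 6 enzymes was above that in cirrhosis, but none passed the threshold. The log2FC ranged from 0.15 to 0.87 with a median of 0.55, against 0.01 over all genes tested. By edgeR 0 of the 6 were called, 1 had an unadjusted p under 0.05 (Gys2), and DESeq2 also called 0. Few genes of any kind passed in this comparison, with 0.0139% of those tested called higher (Gemin6 with log2FC 2.04 and Ehd3 with 1.39, named because they were the only 2) and 0% called lower.

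Gys2, with the highest log2FC of the 6 when all rats were kept, had the highest coefficient of variation of the 6 in the eplerenone group. The cirrhosis & eplerenone rats had 149, 109, 26.7, 55.8 and 35.5 FPM. Replicates 1 and 2 were above every control, and replicates 3 and 5 were below every cirrhotic rat, replicate 5 by a small margin. The mean of 75.1 ± 52.1 (SD, n = 5) stood beside 41.1 ± 5.47 (SD, n = 5) in cirrhosis, a log2FC of 0.87 (SE 0.36, 95% interval 0.11 to 1.63, FDR = 0.316). Without cirrhosis & eplerenone replicate 1 the log2FC of Gys2 was 0.45, below that of Pck1 at 0.68, and without cirrhosis replicate 1 that of G6pc (1.09) exceeded that of Gys2 (0.83). With eplerenone, only replicates 1 and 2 carried the label number 15, and replicates 3, 4 and 5 carried 20. Without eplerenone, 15 belonged to cirrhotic replicates 1, 2 and 3, and 20 to replicates 4 and 5. The comparison among rats with 15 thus rests on the same eplerenone rats that lay above every control. The difference in Gys2 was unequal between the label numbers. Among rats with 15 the log2FC was 1.66 (FDR = 0.0477), the only enzyme of the 6 called there, beside 0.363% of all genes called higher, and among rats with 20 it was -0.06. A test of the difference between the 2 sets gave -1.70 (unadjusted p = 0.00258, FDR = 0.344), and no gene of the 13795 tested for it had an FDR under 0.05.

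Pck1 lay above the cirrhotic range in 4 of the 5 rats with eplerenone, whose levels were 4014, 5212, 854, 4515 and 3059 FPM. Replicate 3 had the lowest level of all 14 rats, and replicates 2 and 4 had the highest. The mean of 3531 ± 1689 (SD, n = 5) was close to that of control, and against cirrhosis the log2FC was 0.75 (SE 0.35, 95% interval -0.01 to 1.5, FDR = 0.351). Cirrhosis replicate 5 and cirrhosis & eplerenone replicate 3 were also left out together. These 2 rats lay towards the other group on the first principal component, so their removal itself widens the difference, and calls over all genes went from 2 to 1294. In that fit Pck1 had a log2FC of 1.04 (FDR = 0.0234) and was the 1 enzyme of the 6 called, beside 4.46% of all genes called higher, which is given as a description and not as support. In the same fit 3 of the 6 enzymes (Pck1, Pc and Pygl) were lower in cirrhosis than in control, beside 14.9% of all genes. Within the label numbers the log2FC of Pck1 was 1.16 among rats with 15 and 0.40 among rats with 20, and neither passed.

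G6pc had 1257, 774, 150.4, 827 and 682 FPM in rats with eplerenone, and Pc had 291, 487, 155, 402 and 344 FPM. For both genes replicate 3 lay below every cirrhotic rat, whereas 1 replicate for G6pc and 3 for Pc lay above the cirrhotic range. The log2FC against cirrhosis was 0.66 (SE 0.58, FDR = 0.568) for G6pc and 0.44 (SE 0.28, FDR = 0.431) for Pc. For G6pc it was 0.38 without cirrhosis & eplerenone replicate 1 and 1.09 without cirrhosis replicate 1, and for Pc 0.27 without cirrhosis & eplerenone replicate 2. Among rats with 15 and with 20 these values were 0.88 and 0.73 for G6pc and 0.58 and 0.42 for Pc.

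Pygl had 262, 315, 136, 439.6 and 308 FPM and Fbp1 534, 738, 245, 386 and 310.5 FPM. Pygl went beyond the cirrhotic range at both ends, and Fbp1 at the upper end. Fbp1 was nearest to its level in cirrhosis, with a log2FC of 0.15 (SE 0.31, FDR = 0.815, 95% interval -0.50 to 0.81), and Pygl had a log2FC of 0.35 (SE 0.26, FDR = 0.50), which was 0.15 without replicate 4.

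Against control, rats with eplerenone had a log2FC of -0.58 for Fbp1, -0.48 for Pc and -0.48 for Pygl, and of 0.02 for Pck1, 0.10 for Gys2 and 0.33 for G6pc. None of the 6 passed by edgeR (FDR 0.336 to 0.988) or by DESeq2, and none had an unadjusted p under 0.05. Of all genes tested 0.895% were called lower and 4.33% higher. The comparison shares its rats with both others, so its values are not a further measurement. Ordered by mean level, Pck1, Gys2 and G6pc ran from cirrhosis & eplerenone over control to cirrhosis, and Fbp1, Pc and Pygl from control over cirrhosis & eplerenone to cirrhosis. No pair of neighbours in these orders passed the test. Control and cirrhosis, the ends of the order for Pc and Pygl, did for those genes.

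Much of the spread in FPM was shared between the enzymes. Cirrhosis & eplerenone replicate 3 had the lowest level of its group for 6 of 6 enzymes and the lowest of all 14 rats for 4 (Pck1, Pc, Gys2 and Pygl), and its mean over the 6 was 1.58 log2 units below the control mean. Cirrhosis replicate 4 was lowest of its group for 5 of 6 and lay 1.23 below. Control replicate 2 was lowest among controls for 5 of 6 and lay 0.66 below, most of all for G6pc. Cirrhosis & eplerenone replicates 1, 2 and 4 lay 0.22, 0.33 and 0.03 above the control mean, beside control replicates 3 to 5, which lay 0.14, 0.22 and 0.30 above it. These means hide opposite movements, since cirrhosis & eplerenone replicates 1 and 4 each had 3 of 6 enzymes below the control mean. In that replicate 1 G6pc and Gys2 stood at 1.53 and 1.1 relative to it, and Fbp1, Pc and Pygl at -0.30, -0.64 and -0.63. The control mean of G6pc included control replicate 2 at -2.34.

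**Figure D3:**
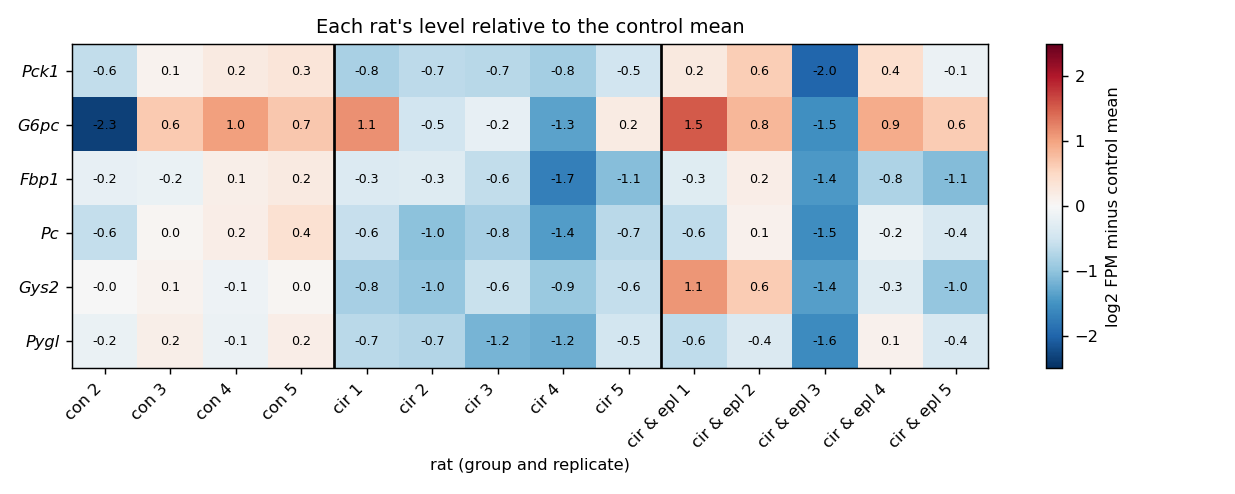
Level of each enzyme in each of the 14 rats as log2 FPM minus the mean of the control rats (red above, blue below, lines between groups, con control, cir cirrhosis, epl eplerenone). The column of cirrhosis & eplerenone replicate 3 is blue throughout (-2.0 to -1.4), and control replicate 2 is far below the other controls for G6pc.

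Whole liver RNA mixes cells, and fewer hepatocytes cannot be told apart from less RNA of these genes per hepatocyte. Of 9 hepatocyte markers tested, 0 were called in cirrhosis against control by edgeR, although 5 had an unadjusted p under 0.05 and DESeq2 called 5 (4 lower), and their median log2FC was -0.52. They did not all move the same way. The log2FC was negative for 6, down to -0.71 for Ttr, and positive for 3 (Apoa1 0.74, Tf 0.59 and Ambp 0.08). All 5 cholangiocyte markers were called higher (median 2.90, summed level 12.8 to 19.4 FPM in control and 42.4 to 100.0 in cirrhosis), as were 5 of 7 stellate cell and myofibroblast markers (median 2.31, 140 to 239.7 and 257 to 513 FPM) and 4 of 6 lymphocyte markers (7.17 to 16.7 and 21.2 to 30.3 FPM). Of the endothelial markers 1 was higher and 1 lower of 4, and of the macrophage markers 1 was lower of 5. Hepatocyte markers by position in the lobule were lower in part, with 2 of 6 periportal markers (median -0.61) and 1 of 5 pericentral markers (median -0.79) called. Scaling the libraries on the hepatocyte markers left 0 of the 6 enzymes called in cirrhosis. The part of the other cell types' markers in the result was not tested.

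Each enzyme was therefore set against the mean log2 level of the 9 hepatocyte markers in the same rat, with 18 exact two-sided permutation tests. Relative to these markers Pygl was 0.61 log2 units lower and Gys2 0.53 lower in cirrhosis than in control, with every cirrhotic rat below every control (exact permutation p = 0.0159 for both, the smallest possible with 4 against 5 rats, adjusted p = 0.143). Pc was 0.66 lower (exact permutation p = 0.0317, adjusted p = 0.190), Fbp1 0.57 lower and Pck1 0.46 lower (adjusted p = 0.238 for both), while G6pc was 0.10 higher (adjusted p = 0.889). Between cirrhosis & eplerenone and cirrhosis the differences ran from 0.25 for Fbp1 to 0.74 for G6pc (adjusted p from 0.238). No difference passed after adjustment. With so few rats this decides little, since even full separation of control and cirrhosis gave an adjusted p of 0.143. The markers themselves lay 0.71 below the control mean in cirrhosis & eplerenone replicate 3, the lowest of the 14 rats, 0.61 below in cirrhosis & eplerenone replicate 1 and 0.46 below in cirrhosis replicate 4. In replicate 1 of the eplerenone group the 6 enzymes nevertheless had a mean 0.22 above that of control, with 3 of the 6 below their control means.

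Other genes of glucose and glycogen metabolism were counted in the same way, with no test of a list as a set. The counts are by edgeR, which called 6.71% of all genes lower and 13.4% higher in cirrhosis. Of 23 further gluconeogenic enzymes and carriers tested, 2 were lower, near the share over all genes, and 0 higher (median log2FC -0.25). Among them was Aqp9, the channel that lets glycerol into hepatocytes (log2FC -0.85, SE 0.22, FDR = 0.0153). Aqp9 had 215 to 291 FPM in control and 117 to 171 in cirrhosis, with no overlap.

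Of 12 genes of glycogen synthesis and its control 2 were lower and 0 higher (median -0.51), the branching enzyme Gbe1 (248 ± 34.7 FPM in control and 115 ± 41.5 in cirrhosis, log2FC -1.12, FDR = 0.00961) and the phosphoglucomutase Pgm1 (log2FC -0.64, FDR = 0.0453). Of 8 genes of glycogen breakdown 1 was lower and 0 higher, while the median of the list was 0.22.

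Of 9 genes of glucose entry and glycolysis 1 was lower and 0 higher by edgeR. It was Pdk4, the kinase that shuts off pyruvate dehydrogenase (23.3 to 59.0 FPM in control and 2.10 to 8.53 in cirrhosis, log2FC -2.92, FDR = 0.0178). DESeq2 called 2 lower (Pdk4 and Pklr) and 2 higher (Hk1 and Hk2). Of the 14417 genes tested, that tool called 9.93% lower and 2576 genes higher. Of 21 hormone receptors and transcriptional regulators 3 were lower and 1 higher (median -0.52). The insulin receptor Insr (log2FC -1.04, FDR = 0.0372), its adaptor Irs1 (log2FC -1.51, FDR = 0.0301) and the hepatocyte transcription factor Hnf4a (log2FC -0.81, FDR = 0.0290) were lower.

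**Figure D4:**
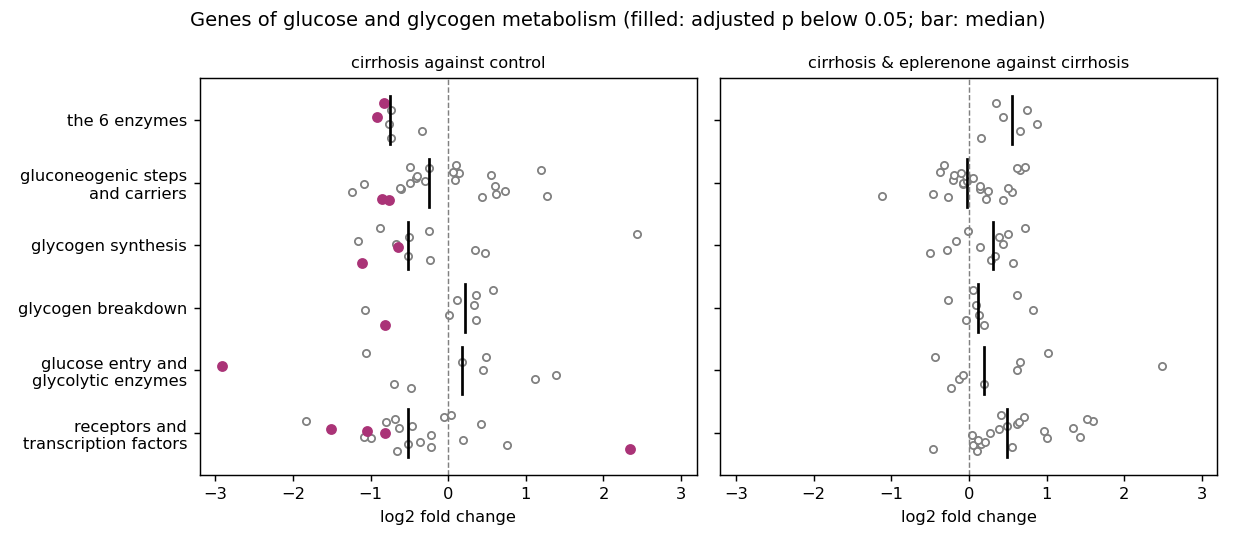
Log2 fold change of each tested gene of the lists of glucose and glycogen metabolism, in cirrhosis against control (left) and cirrhosis & eplerenone against cirrhosis (right), with filled points for FDR below 0.05 and a bar at each list's median. The 6 enzymes have medians of -0.75 and 0.55, and no point is filled on the right.

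In cirrhosis & eplerenone against cirrhosis 0 genes of these 5 lists passed by edgeR or by DESeq2. Unadjusted p-values under 0.05 numbered 2 among the gluconeogenic genes and 1 each among those of glycogen synthesis and breakdown. They numbered 3 among those of glucose entry and 3 among receptors and regulators, against 2076 of the 14417 genes tested. In the last list 20 of 21 genes had a positive log2FC (median 0.49), against 7362 of the 14417 genes tested. Pdk4 had 2.96 to 78.2 FPM in rats with eplerenone and a log2FC of 2.49 (SE 0.74) without passing.

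The isozymes of the 6 enzymes had far fewer reads in these livers and did not pass in cirrhosis. The mitochondrial carboxykinase Pck2 had means of 13.1, 19.2 and 16.7 FPM in control, cirrhosis and cirrhosis & eplerenone (log2FC 0.55 in cirrhosis, FDR = 0.149). The muscle bisphosphatase Fbp2 had 0.52, 1.27 and 0.59 FPM (FDR = 0.148), and the ubiquitous phosphatase G6pc3 6.23, 9.58 and 6.94 FPM (FDR = 0.186). Muscle glycogen synthase Gys1 had 4.22, 5.36 and 4.40 FPM, and the brain and muscle phosphorylases Pygb and Pygm had at most 3.89 and 1.36 FPM in any group mean. For all 6 of these isozymes the mean in cirrhosis was above that in control, and 0 of the 6 passed. Of the 14417 genes tested, 7104 had a positive log2FC in this comparison. Fbp2 and Pygm had few reads, with control means of 0.52 and 0.88 FPM. For Pygb the range in cirrhosis (0.97 to 5.30 FPM) spanned that in control (1.57 to 2.42 FPM). Slc37a4, which carries glucose-6-phosphate to G6pc, had 252.2, 179.7 and 297 FPM (log2FC -0.49, FDR = 0.246, in cirrhosis and 0.72 with eplerenone against cirrhosis).

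The genes whose log2 levels over the 14 rats were most like those of each enzyme were mostly different ones, Apmap being named for both Pc and Pygl. They are given as a description over 7429 protein coding genes with a mean of at least 10 FPM, and the rats share groups and library composition. Fbp1 ran closest to Cps1, the entry enzyme of the urea cycle (Pearson r = 0.951), and to Cyp3a9 (r = 0.940) and Gpt (r = 0.929). Pygl ran closest to Pex13 (r = 0.968), Apoa4 (r = 0.964) and Apmap (r = 0.963), and Pc to Apmap (r = 0.950), Bmf (r = 0.949) and LOC103690024 (r = 0.945). Pck1 was most like Sidt2 (r = 0.934), Rfk (r = 0.927) and Erbb3 (r = 0.923), and Gys2 had Stard4 (r = 0.909) and Fam117b (r = 0.901) among its nearest 3. G6pc had the loosest companions, Gosr2 (r = 0.876), Supt6h (r = 0.869) and Oaf (r = 0.853).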

How the data were processed

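Poly(A) RNA from rat liver was sequenced by the authors with paired reads of 150 bases, mapped to rn6 with HISAT2 2.1.0 and counted per gene with featureCounts 2.0.0 over exons, with multi-mapping reads counted at each place. Genes were named from Ensembl archive 101 through biomaRt 2.44.4. Reads of near-identical copies are thus counted more than once, and whether counting used strand is not given in the sources used here. The deposited values are raw counts for 14 of the 15 samples in the labels. Control replicate 1 was not analysed here, and the spread among controls is that of the 4 kept.

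Counts were tested with edgeR 4.0.16 in R 4.3.3 by the quasi-likelihood test (filterByExpr with a minimum count of 10, TMM scaling, all 3 groups in 1 model), with Benjamini-Hochberg adjustment (FDR) over the 14417 genes tested. Genes with FDR below 0.05 are called. SEs and 95% intervals come from the same test. The fit was tested on simulated data. Log2 levels used a prior count of 2. DESeq2 1.42.0 was the second tool. Exact two-sided permutation tests used scipy 1.17.1. Samples are livers numbered within groups and were taken as separate rats, as the paper gives 4 to 5 animals per group for the sequencing. The p-values weigh differences against the spread between these samples.

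The members and gene lists were chosen with earlier results of these data known. Named are the 6 enzymes, their isozymes, list genes called in a comparison (at most 4 in each direction) and the 3 genes most correlated with each enzyme. Some genes that this rule names are not reported here. No row was used here for Gapdh, Phka2, Sirt1, Ahsg, Col1a2 and Pecam1. Alternatives were other scalings, filters and tools, single samples left out, 2 distant rats left out, a replicate block, and fits within or with the number in the labels.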

Additional observations from a re-analysis of the deposited data

How the results depend on the processing

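In cirrhosis against control the 6 enzymes kept a negative log2FC under all alternatives, except G6pc at 0.021 with libraries scaled on hepatocyte markers. The number of enzymes called there was 2 and ranged from 0 to 3 when single samples were left out. It was 1 with total counts in place of TMM, 0 with scaling on hepatocyte markers, 1 with no filter beyond 1 count and 4 with only the 2 groups compared. In cirrhosis & eplerenone against cirrhosis it was 0, and 1 without the 2 distant rats (cirrhosis replicate 5 and cirrhosis & eplerenone replicate 3) and 1 within label number 15. Scaling moved the median log2FC of all genes in cirrhosis against control from -0.01 to 0.28 with total counts and to 0.37 with hepatocyte markers, and the split of genes called higher and lower from 1939 and 967 to 3055 and 366, and to 3530 and 237. For cirrhosis & eplerenone against control the split of 624 and 129 became 1282 and 69, and 2350 and 54.

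Over all genes, calls in cirrhosis against control numbered 2906, from 1365 (without control replicate 5) to 4612 (without cirrhosis replicate 5) with single samples left out and 4832 without both distant rats. In cirrhosis & eplerenone against cirrhosis they numbered 2, from 0 to 26 (without cirrhosis replicate 5) with single samples left out, 74 with DESeq2, 1294 without both distant rats, 87 within label number 15 and 0 within label number 20. In cirrhosis & eplerenone against control they numbered 753, from 221 (without control replicate 5) to 1277 (without cirrhosis & eplerenone replicate 2), with 1351 under total counts, 2404 under hepatocyte marker scaling, 1523 with DESeq2 and 377 with at least 10 counts in every sample.

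Replicate numbers did not pair the rats, as same-numbered samples correlated at -0.333 to 0.187. A replicate block moved the calls over all genes to 1137, 0 and 110 in the 3 comparisons and the number of enzymes called in cirrhosis against control to 0. Signs turned in few fits. Fbp1 in cirrhosis & eplerenone against cirrhosis was -0.02 without cirrhosis replicate 4 and -0.11 without cirrhosis & eplerenone replicate 2, and Gys2 was -0.062 within label number 20. Against control, with eplerenone, Pck1 ranged with single samples left out from -0.17 (without cirrhosis & eplerenone replicate 2) to 0.27, taking -0.15 (without control replicate 2, and with the replicate block), -0.09 (without replicate 4 of that group) and -0.03 (without its replicate 1). In the same comparison G6pc ranged from -0.035 (without control replicate 2) to 0.59. Gys2 ranged up to 0.32 and was -0.30 and -0.07 without cirrhosis & eplerenone replicates 1 and 2, and -0.40 with the replicate block. The cause of these shifts was not tested.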

Other observations

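Enzymes that run opposite ways were also set against each other, as log2 ratios of FPM within each rat. These pairs were chosen after the values had been seen, and 12 exact two-sided permutation tests were made. Fbp1 relative to Pfkl, the liver phosphofructokinase, was 3.94 ± 0.35 (SD, n = 4) in control and 2.70 ± 0.49 (SD, n = 5) in cirrhosis, with every cirrhotic rat below every control (difference -1.24, exact permutation p = 0.0159, the smallest possible, adjusted p = 0.190). With so few rats even this full separation did not pass after adjustment over the 12 tests. With eplerenone the ratio was 3.22 ± 0.71 (SD, n = 5). Pck1 relative to pyruvate kinase Pklr was 4.41 in control, 4.99 in cirrhosis and 4.27 with eplerenone (adjusted p from 0.612). Gys2 relative to Pygl had group means of -2.54 (control), -2.46 (cirrhosis) and -2.16 (with eplerenone). Its SD was 0.12 among controls, 0.36 in cirrhosis and 0.98 among rats given eplerenone, which lay from -3.11 to -0.81. In both CCl4 groups every rat lay outside the control range. In cirrhosis 2 lay above and 3 below every control, and with eplerenone 3 lay above and 2 below.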
